A study of Mus musculus with 12 samples.

Results

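The MiT/TFE family consists of 4 transcription factor genes, Mitf, Tfeb, Tfec and Tfe3, and their messenger RNA was measured in mouse adipose tissue. The genes were found by symbol and were 4 of the 53431 identifiers in the count table. The 12 libraries came from 4 samples of each of 3 groups, all of mixed C57BL/6 x 129/SvJ background and taken at 6 months of age. Treated Bbs2-/- mice, labelled as lacking normal Bbs2, ate feed with 0.033% by weight of Genz667161 from the age of 2 months to 6 months. Untreated Bbs2-/- mice had the same genotype without the compound, and WT mice had neither the mutation nor the compound. Genz667161 inhibits glucosylceramide synthase, the enzyme that makes the precursor of most glycosphingolipids. Bbs2 encodes a subunit of the BBSome, which carries membrane proteins to and from cilia. The fat depot and the sex were not in the labels. The labels number the samples without calling them separate mice, so p-values measure the spread among these samples only, and that spread may be technical.

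MiT/TFE proteins are basic helix-loop-helix leucine zipper factors that bind DNA as homodimers or as heterodimers with each other. TFEB, TFE3 and MITF are kept in the cytosol when the mTORC1 kinase at the lysosome phosphorylates them and 14-3-3 proteins hold them there, and they move to the nucleus in starvation or lysosomal stress. There they bind E-box sequences near genes of lysosomal enzymes, the vacuolar proton pump and autophagy. MITF is also known for its part in melanocytes, osteoclasts and mast cells, and Tfec in the mouse is known mainly from macrophages. Since much of this control acts on the proteins, the messenger levels given here do not show their activity.

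All 4 genes are protein coding and stand on mm10. Mitf (ENSMUSG00000035158.15) lies on chromosome 6 from 97807052 to 98021349 on the plus strand, with 8 annotated transcripts. Tfec (ENSMUSG00000029553.10) lies on the same chromosome from 16833373 to 16898441 on the minus strand, with 5 transcripts. Tfeb (ENSMUSG00000023990.18) lies on chromosome 17 from 47737030 to 47792419 on the plus strand, with 15 transcripts. Tfe3 (ENSMUSG00000000134.17) lies on chromosome X from 7762560 to 7775202 on the plus strand, with 14 transcripts. The annotation places 1 other gene within them, the pseudogene Gm15531 on the opposite strand of Mitf, which had 2 counts over the 12 libraries. Counts are per gene, so the forms of a gene that start at different promoters were not told apart.

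The promoters of the 2 genes with the widest fold changes, Mitf and Tfec, are shown from RefSeq on GRCm38.p6, the same build. Each window runs from 250 bases before an annotated start to 50 bases after it and is written along the gene's own strand. The Mitf window, chr6:97991533-97991832 on the plus strand, is the most downstream of 3 RefSeq windows of the gene. The most downstream start of Mitf is known for the short form made in melanocytes. It is shown because the other Mitf windows held none of the motifs searched. Which start was used in this tissue was not measured. The capitals mark TGACGTCA, the cyclic AMP response element, 153 bases before the start. The Tfec window, chr6:16898392-16898691 on the minus strand, is the single RefSeq window of that gene. Its capitals mark AGGAAGT, a core sequence bound by ETS factors, 71 bases before the start.
Mitf: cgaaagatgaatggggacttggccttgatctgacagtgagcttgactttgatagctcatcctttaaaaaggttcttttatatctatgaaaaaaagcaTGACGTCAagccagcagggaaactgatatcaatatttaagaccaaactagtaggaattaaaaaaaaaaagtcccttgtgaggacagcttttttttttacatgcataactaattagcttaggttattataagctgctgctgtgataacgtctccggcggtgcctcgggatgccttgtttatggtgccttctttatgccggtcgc
Tfec: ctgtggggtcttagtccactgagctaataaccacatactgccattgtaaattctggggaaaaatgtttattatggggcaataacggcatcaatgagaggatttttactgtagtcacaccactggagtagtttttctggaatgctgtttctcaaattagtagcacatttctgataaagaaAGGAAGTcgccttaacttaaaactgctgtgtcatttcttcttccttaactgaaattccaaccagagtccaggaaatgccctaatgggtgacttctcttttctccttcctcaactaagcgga
Both strands of each window were searched. TGACGTCA was in 1.79% of all 32851 RefSeq mouse windows, and AGGAAGT was in 9.35%. AGGAAGT was also found in 1 Tfe3 window, on the minus strand 7 bases after the start, and in none of the 3 Tfeb windows. The E-box CACGTG, the related M-box TCATGTG and the longer CLEAR motif of lysosomal genes, which contains CACGTG, were in no window of the 4 genes. These shares were 7.15% for CACGTG, 3.77% for TCATGTG and 0.33% for the CLEAR motif over all windows. The CLEAR motif, searched as exact letters, was also in 0 of 29 lysosomal hydrolase genes with a window. It was in 0 of 12 vacuolar ATPase genes and 0 of 14 lysosomal membrane protein genes with a window. Its absence therefore does not set the 4 genes apart from those lysosomal genes. A match or its absence describes the letters of these windows only.

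The libraries held 16317865 to 20224200 estimated counts. Bbs2 itself checks the labels, and it ran against them. It was at 53.7 to 65.4 counts per 1e6 counts (CPM) in libraries labelled treated Bbs2-/-, at 53.7 to 70.6 CPM in those labelled untreated Bbs2-/- and at 12.1 to 12.7 CPM in those labelled WT. Counts summed over a gene say nothing of a deleted stretch within it, so every direction below holds between libraries as labelled. For the tissue label, 20 mature adipocyte genes were all measured, and their summed level was 68370 to 99580 CPM in treated Bbs2-/- libraries, 34480 to 42440 in untreated Bbs2-/- libraries and 65860 to 98560 in WT libraries. Some libraries held RNA of other tissue. Epididymis genes summed to 1083 CPM in WT 1, and the ciliary regulator gene Foxj1 was counted 154 and 140 times in treated 1 and 3, and 48 and 164 times in WT 1 and 4.

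Mitf, Tfeb and Tfe3 were higher in libraries labelled untreated Bbs2-/- than in libraries labelled WT, and the same 3 genes were lower in libraries labelled treated than in those labelled untreated Bbs2-/-. Mitf had the widest change of the 3, and Tfe3 the smallest. Tfec was close to the limit of detection, and its values are given apart. CPM here are scaled to the TMM-normalized library size, and a gene was called where the edgeR p adjusted over 15968 tested genes was under 0.05. The whole tissue was sequenced, so more cells of a type and more RNA per cell cannot be told apart.

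Mitf stood at 13.8, 14.4, 12.9 and 11.6 CPM in the 4 treated Bbs2-/- libraries. It stood at 67.2, 59.3, 53.1 and 53.3 CPM in untreated Bbs2-/- libraries and at 24.8, 17.6, 12.1 and 18.95 CPM in WT libraries. The untreated libraries lay above all other 8 libraries, while the treated and WT ranges overlapped. Mitf rose in untreated Bbs2-/- libraries, with 58.2 ± 6.63 CPM against 18.4 ± 5.24 CPM in WT (SD, n = 4 each). This is a log2 fold change of 1.66 (SE 0.18), 3.17-fold, with an edgeR adjusted p of 8.76e-05. In treated libraries it fell to 13.2 ± 1.19 CPM, which the fit put at 22.7% of the untreated Bbs2-/- level (log2 fold change -2.14, SE 0.18, edgeR adjusted p = 3.27e-05).

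Tfeb stood at 17.5, 16.8, 12.3 and 18.2 CPM in treated Bbs2-/- libraries. It stood at 29.2, 27.3, 23.3 and 29.7 CPM in untreated Bbs2-/- libraries and at 13.0, 9.59, 11.9 and 13.5 CPM in WT libraries. The untreated libraries were again above all others, and 1 treated library, treated 3, lay within the WT range. Tfeb rose in untreated Bbs2-/- libraries to 27.4 ± 2.94 CPM, against 11.99 ± 1.74 CPM in WT (log2 fold change 1.19, SE 0.15, edgeR adjusted p = 0.000183). It fell to 16.2 ± 2.67 CPM in treated libraries, 59.2% of the untreated level in the fit (log2 fold change -0.76, SE 0.15, edgeR adjusted p = 0.00193).

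Tfe3, the most abundant of the 4, stood at 64.0, 57.0, 48.3 and 57.3 CPM in treated Bbs2-/- libraries. It stood at 77.9, 78.6, 70.7 and 99.4 CPM in untreated Bbs2-/- libraries and at 43.6, 52.6, 47.7 and 45.8 CPM in WT libraries. Untreated 4 was the highest library, and the lowest untreated library still lay above the highest of the other groups. Tfe3 rose in untreated Bbs2-/- libraries by a log2 fold change of 0.78 over WT (SE 0.12, edgeR adjusted p = 0.000471). It fell in treated libraries to 69.4% of the untreated Bbs2-/- level in the fit (log2 fold change -0.53, SE 0.12, edgeR adjusted p = 0.00459).

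Tfec had the fewest reads, with 13, 15, 9 and 2 counts in treated Bbs2-/- libraries. It had 92, 36, 24 and 41 counts in untreated Bbs2-/- libraries and 31, 4, 5 and 7 in WT libraries. These are 0.105 to 0.817 CPM in treated, 1.20 to 4.74 CPM in untreated and 0.270 to 1.69 CPM in WT libraries. Untreated 1 was the highest of all, and WT 1 lay within the untreated range, apart from the other 3 WT libraries. Only 3 of the 8 libraries outside the untreated group had at least 10 counts, so Tfec passed the filter on low counts through the untreated group, where it is high, and its tests are given as values only. For untreated Bbs2-/- against WT the log2 fold change was 1.81, with a 95% interval of 0.30 to 3.31, and it did not pass (SE 0.69, edgeR adjusted p = 0.0545). It passed with DESeq2 (1.83, adjusted p = 0.0283) and, without WT 1, the library with epididymis RNA, in edgeR (2.81, adjusted p = 0.0056). In edgeR it was 1.26 without untreated 1 (adjusted p = 0.189) and 1.20 without WT 2 and WT 3 (adjusted p = 0.326). Its value for treated against untreated Bbs2-/- was -2.21 on the log2 scale (SE 0.70), at an edgeR adjusted p of 0.0268. It did not pass without untreated 1 (-1.65, edgeR adjusted p = 0.0965), without treated 3 (-2.17, 0.0611), without treated 4 (-1.87, 0.0614) and without the 4 libraries with Foxj1 counts (-2.36, 0.0575).

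**Figure D1:**
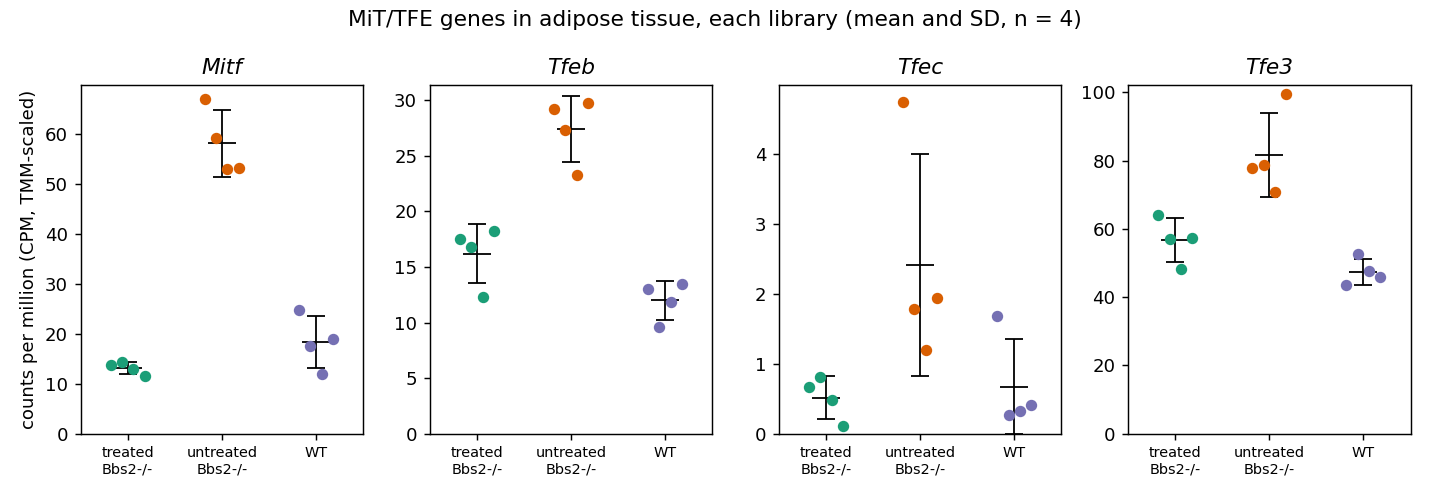
Level of each gene in CPM (vertical axis from 0, scale set per gene) in each library of the 3 groups, with the group mean and SD (n = 4) as bars. For Mitf, Tfeb and Tfe3 the untreated Bbs2-/- points lie above all other points, and for Tfec 1 WT library at 1.69 CPM lies among them.

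Changes were common in these comparisons, and the calls of the MiT/TFE genes and of the gene lists below are read against that. In untreated Bbs2-/- against WT, 39.2% of the 15968 tested genes were called, 19.6% higher and 19.7% lower. Of these calls 49.9% were higher, and 69.0% with library size alone. In treated against untreated Bbs2-/-, 37.2% were called, 18.5% higher and 18.8% lower, so that 49.6% of the calls were higher, and 35.5% with library size alone. Mitf, Tfeb and Tfe3 passed in both. The share of all tested genes whose untreated libraries lie above all others is not given here. That separation is therefore not read as particular to Mitf, Tfeb and Tfe3. Both comparisons use the same untreated libraries, so the opposite signs are not separate observations.

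In treated Bbs2-/- against WT, 0.257% of tested genes were called, 0.175% higher and 0.0814% lower, and none of the 4 was among them by edgeR or by DESeq2. At an unadjusted p under 0.05, Tfeb was higher and Mitf lower. Mitf averaged 13.2 CPM in treated libraries and 18.4 CPM in WT libraries, with a log2 fold change of -0.48 (95% interval -0.87 to -0.09, edgeR adjusted p = 0.362). Tfeb averaged 16.2 CPM in treated libraries and 11.99 CPM in WT libraries, with a log2 fold change of 0.43 (interval 0.11 to 0.75, edgeR adjusted p = 0.319). For Tfe3 the log2 fold change was 0.26 (interval -0.00090 to 0.51, edgeR adjusted p = 0.471), and for Tfec it was -0.40 (interval -1.97 to 1.17, edgeR adjusted p = 0.902). The unadjusted intervals of Mitf and Tfeb lay on opposite sides of 0, and neither passed the adjustment. These intervals bound the differences and do not show that treated and WT tissue were alike.

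**Figure D2:**
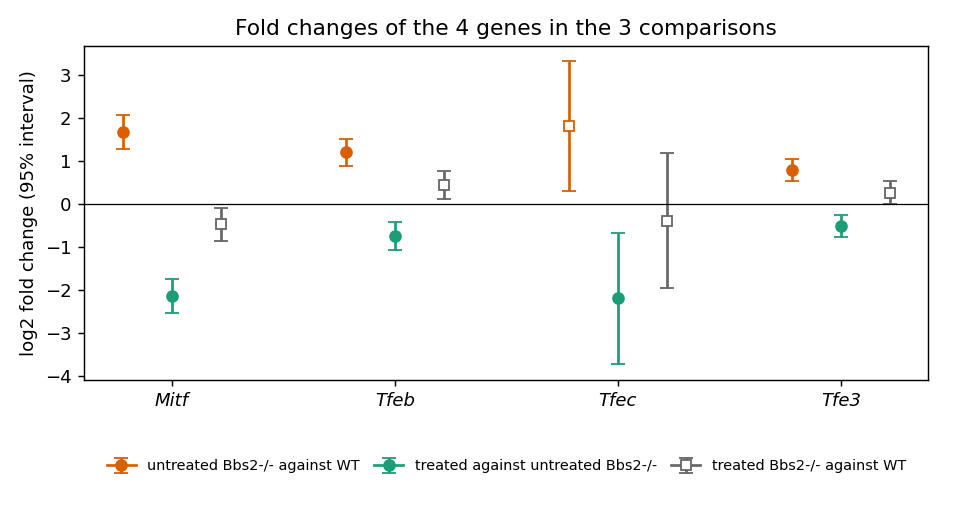
Log2 fold changes of the 4 genes with 95% intervals in the 3 comparisons, filled circles where the edgeR adjusted p was under 0.05 and open squares where it was not. The filled points for untreated Bbs2-/- against WT lie above 0, those for treated against untreated Bbs2-/- below 0, and the Tfec intervals are the widest. Tfec is drawn by the same rule, and its points are given as values only.

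Levels of different genes were compared per length, on the FPKM recovered from the authors' log2 FPKM values. In treated Bbs2-/- libraries the order was Tfe3 at 18.4 to 23.6, Tfeb at 5.84 to 8.38, Mitf at 2.57 to 3.26 and Tfec at 0.0633 to 0.503 FPKM, with no overlap between neighbours. In untreated Bbs2-/- libraries Tfe3 stood at 25.4 to 36.3 FPKM, Mitf at 11.7 to 14.9 and Tfeb at 10.6 to 13.4, with Tfec at 0.713 to 2.75. Mitf and Tfeb overlapped there. In WT libraries Tfe3 stood at 16.3 to 20.3 FPKM, Tfeb at 4.53 to 6.37, Mitf at 2.83 to 6.06 and Tfec at 0.167 to 1.05, and Tfeb and Mitf overlapped again. Tfe3 had the highest and Tfec the lowest level per length of the 4 in each of the 12 libraries.

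The summed FPKM of the 4 genes was 32.03 ± 3.21 in treated Bbs2-/- libraries, 56.1 ± 5.82 in untreated Bbs2-/- libraries and 28.7 ± 1.10 in WT libraries (SD, n = 4 each). Mitf made up 9.47 ± 1.43% of that sum in treated libraries, 23.2 ± 3.10% in untreated libraries and 14.9 ± 4.15% in WT libraries. Tfe3 made up 66.0 ± 0.910% in treated libraries, 52.3 ± 4.37% in untreated libraries and 63.8 ± 6.64% in WT libraries. Tfeb made up between 15.6 and 26.2% of it in the 12 libraries, and Tfec made up at most 4.72%. Among the 18810 genes of the log2 FPKM table, Mitf stood at percentile 47.1 in treated, 72.7 in untreated and 51.6 in WT libraries. Tfe3 stood between percentile 79.1 in WT and 86.5 in untreated libraries.

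**Figure D3:**
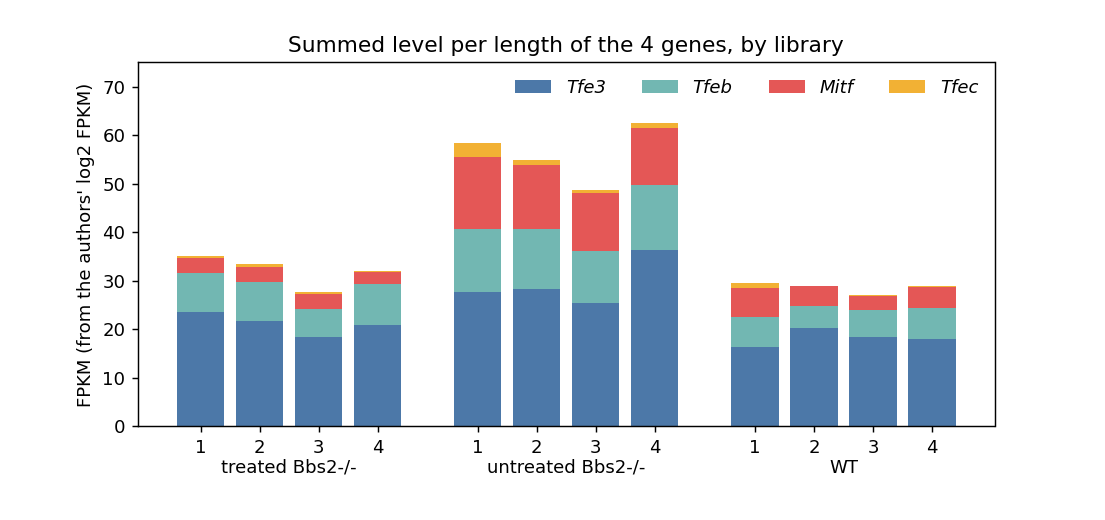
Summed FPKM (vertical axis from 0) of the 4 genes in each library, stacked by gene. The untreated Bbs2-/- bars reach 48.8 to 62.6 FPKM, above every treated and WT bar, and hold the tallest Mitf segments.

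Whether the genes changed by different amounts was tested on the difference of log2 CPM between a pair of genes within each library, where the scaling of the library cancels. Mitf minus Tfe3 averaged -2.09 ± 0.18 in treated Bbs2-/- libraries against -0.48 ± 0.29 in untreated ones, a difference of -1.61. Mitf minus Tfeb averaged -0.28 ± 0.29 in treated libraries against 1.08 ± 0.17 in untreated ones, a difference of -1.37. In both the 4 treated libraries lay below the 4 untreated ones. The two-sided exact permutation p was 0.0286 for each, the smallest that 4 against 4 libraries can give. In that comparison Tfec minus Tfe3 differed by -1.50 and Tfeb minus Tfec by 1.26. The differences with Tfec are given as values only, since Tfec had 2 to 15 counts in treated libraries. Over the 18 permutation tests, which include those with Tfec, the lowest adjusted value was 0.114, so none passed the correction. A pass would need many of the 18 tests at the smallest p, so this does not show that the genes changed alike. For untreated Bbs2-/- against WT, Mitf minus Tfe3 differed by 0.92, with an exact permutation p of 0.0571 and overlap between the groups.

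Across the 12 libraries the log2 CPM of the pairs moved together to different degrees, given here as a description over libraries that share the 3 groups. Pearson's r was 0.905 for Tfeb with Tfe3, 0.844 for Mitf with Tfec and 0.593 for Tfec with Tfe3. With the group means taken out, r was 0.364 for Tfeb with Tfe3 and 0.744 for Mitf with Tfec. Mitf with Tfe3 had an r of 0.748 over all libraries and -0.19 within groups.

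Genes with the pattern most like each of the 4 were sought by Pearson's r of log2 CPM over the 12 libraries among 11960 protein-coding genes. Closest to Mitf was Scpep1, a lysosomal serine carboxypeptidase gene, with r = 0.993. It was followed by Rasgef1b (0.992), Zranb3 (0.992), Tmem206 (0.99) and Gusb (0.989), which encodes lysosomal beta-glucuronidase. Within groups the r of Scpep1 with Mitf was 0.915. Closest to Tfeb was Akt1, a kinase gene of the insulin pathway, with r = 0.984 overall and 0.88 within groups. Closest to Tfe3 was Pfn1, which encodes the actin-binding profilin, with r = 0.96. Closest to Tfec was Stxbp5, which encodes a syntaxin-binding protein, with r = 0.967, and Tfec's few counts add noise to its values. The 12 libraries share the 3 groups, so a gene that follows the groups has a high r whatever its kind.

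Most genes of lysosomal enzymes, the group that MiT/TFE factors are known to drive, were higher in libraries labelled untreated Bbs2-/- than in those labelled WT, and lower in treated than in untreated libraries. Of 39 lysosomal hydrolase genes, 24 rose and 2 fell in untreated Bbs2-/- libraries against WT, beside 19.6% higher and 19.7% lower of all tested genes. The list's median log2 fold change was 0.58, where the median of all tested genes was -0.02. For untreated Bbs2-/- against WT, Ctsa, the gene of cathepsin A, had a log2 fold change of 1.42, Hexa, which encodes a lysosomal hexosaminidase subunit, 1.38, and Gusb 1.34. Smpd1, the gene of acid sphingomyelinase, and Ctsf, the gene of cathepsin F, fell, by 0.66 and 0.49 on the log2 scale. Of the 39, 29 fell and 1, Smpd1, rose (0.56) in treated against untreated Bbs2-/- libraries, beside 18.8% lower and 18.5% higher of all tested genes. The list's median was -0.79, where the median of all tested genes was 0.03.

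Of 18 genes of the vacuolar ATPase, the pump that acidifies lysosomes, 11 rose and none fell in untreated Bbs2-/- libraries against WT (median 0.44), beside 19.6% higher and 19.7% lower of all tested genes. None was lower at an unadjusted p under 0.05 either, and DESeq2 called none lower. Among those that rose were Atp6ap2, an accessory subunit (0.84), Tcirg1, the a3 subunit (1.75), and Atp6v0d2, a d subunit known from macrophages and osteoclasts (2.66). For treated against untreated Bbs2-/- libraries 12 of the 18 fell and none rose, beside 18.8% lower and 18.5% higher of all tested genes. None rose at an unadjusted p under 0.05 or by DESeq2 either. The log2 fold change was -1.03 for Atp6ap2, -1.99 for Tcirg1 and -4.23 for Atp6v0d2. Of 16 lysosomal membrane protein genes, 9 rose and 1, the transporter gene Abcb9 (-0.44), fell in untreated Bbs2-/- libraries, beside the same 19.6% and 19.7%. Cd63, a tetraspanin gene, rose by 1.11 and Lamp2, which encodes a main glycoprotein of the lysosomal membrane, by 0.67. Against untreated libraries, 9 of the 16 fell in treated ones, with -1.27 for Cd63, and 1, Abcb9, rose (0.95). These stand beside the same 18.8% lower and 18.5% higher of all tested genes.

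Of 27 autophagy genes, 4 rose (14.8%) and 6 fell (22.2%) in untreated Bbs2-/- libraries against WT (median -0.06). These shares are near the 19.6% and 19.7% of all tested genes. In treated against untreated libraries 5 rose (18.5%) and 4 fell (14.8%), with a median of 0.04, near the 18.5% and 18.8% of all tested genes. There 9 fell with library size alone as the scaling and 2 without untreated 1 or without treated 1. Uvrag (0.69) and Vps18 (0.78), which serve the fusion of endosomes with lysosomes, rose in untreated libraries. Map1lc3b (-0.55), which encodes the LC3 protein of autophagosomes, and Wipi2 (-0.41) fell.

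Among 36 tested regulators of MiT/TFE proteins, which include mTORC1, the Rag GTPases, folliculin, kinases, calcineurin and 14-3-3 genes, 11 rose (30.6%) and 4 fell (11.1%) in untreated Bbs2-/- libraries against WT (median -0.02), beside 19.6% and 19.7% of all tested genes. With library size alone, without untreated 2, or without WT 2 and WT 3, 2 fell. Rragd, which encodes the GTPase RagD that brings TFEB and TFE3 to the lysosome, was at 0.262 to 0.931 CPM in treated Bbs2-/-, 2.27 to 4.49 CPM in untreated Bbs2-/- and 0.464 to 0.930 CPM in WT libraries. Its log2 fold change was 2.30 for untreated Bbs2-/- against WT (SE 0.40, edgeR adjusted p = 0.00101) and -2.54 for treated against untreated Bbs2-/- (SE 0.40, edgeR adjusted p = 0.000602). Flcn, the gene of folliculin, which acts on RagC and RagD, had 0.42 for untreated against WT and -0.51 for treated against untreated. Its partner genes Fnip1 and Fnip2, named after their values were seen, had 0.60 and 1.34 for untreated against WT and -0.86 and -1.95 for treated against untreated. Akt1 (0.55) rose and Akt2 (-0.79), the other main kinase of insulin signalling in fat, fell. The 14-3-3 genes Ywhah (0.60) and Ywhab (-0.79) likewise passed with opposite signs, and Xpo1, the nuclear export receptor gene, rose (0.49). Of the 36, 3 rose and 11 fell in treated against untreated libraries, beside 18.5% and 18.8% of all tested genes.

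Of 10 genes known as feedback or metabolic targets of the family, which share Flcn, Fnip1, Fnip2, Rragc and Rragd with the regulators, 4 rose and 3 fell in untreated Bbs2-/- libraries, beside 19.6% and 19.7% of all tested genes. The 4 that rose were Flcn, Fnip1, Fnip2 and Rragd, and 2 rose without WT 4. Ppargc1a, the gene of the mitochondrial coactivator PGC-1alpha, fell by 1.23 on the log2 scale, and Sesn2, a stress gene that restrains mTORC1, fell by 0.98. Ppargc1a rose by 1.62 and Sesn2 by 0.97 in treated against untreated libraries. They were among 4 that rose and 5 that fell, beside 18.5% and 18.8% of all tested genes. Among 15 relatives with the same DNA-binding fold, 7 rose (46.7%) and 2 fell (13.3%) in untreated Bbs2-/- libraries (median 0.26), beside 19.6% and 19.7% of all tested genes. Myc (0.88) and Srebf2 (0.54), the sterol regulator, rose, and Srebf1 (-0.56) and Mlxipl (-0.90), regulators of fat synthesis, fell. In treated Bbs2-/- against WT, no gene of the hydrolase, ATPase, membrane, autophagy, regulator and target lists passed in edgeR, and 1 of the 15 relatives rose. These lists without the relatives hold 139 tested genes, of which 3 were higher and 13 lower at an unadjusted p under 0.05. DESeq2 called 1 of them higher and 1 lower. How many of all tested genes reach the unadjusted threshold is not given here. Whether 13 lower is more than usual is therefore not known. WT 2 and WT 3 have library names in the labels that lack the word merged, which the other 10 carry. Without them, 21 hydrolase, 7 ATPase, 5 membrane, 6 regulator, 2 target, 2 autophagy and 2 relative genes rose in untreated Bbs2-/- against WT. That fit called 3417 genes in either direction, against 6263 in the full fit, so 19.6% is not the share to set beside these counts.

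**Figure D4:**
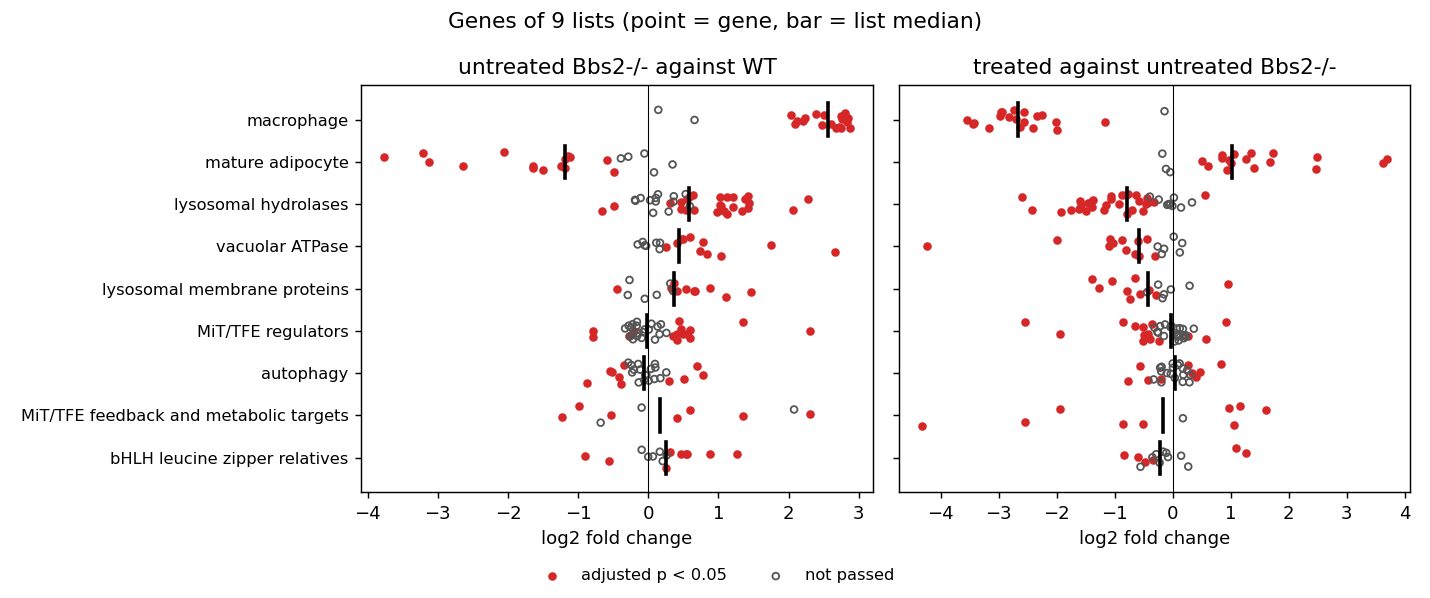
Log2 fold changes (horizontal axis) of the tested genes of 9 lists in 2 comparisons, each point a gene, filled where the edgeR adjusted p was under 0.05, with the list median as a black bar. Hydrolase, ATPase and membrane genes lie mostly above 0 for untreated Bbs2-/- against WT and below 0 for treated against untreated Bbs2-/-, and the macrophage genes lie further out in the same directions.

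E-boxes in promoters of the lysosomal genes were looked for in the RefSeq windows. CACGTG was in 9 of 29 hydrolase genes with a window (31.0%), 4 of 12 ATPase genes and 3 of 14 membrane protein genes, against 11.25% of the 11626 tested genes with one. Of the 16 genes with an E-box, 7 rose and 1 fell in untreated Bbs2-/- libraries against WT (median 0.24), and 25 of 39 without one rose and 2 fell (median 0.58). For treated against untreated libraries, 8 of 16 fell (median -0.41) and 30 of 39 without one fell (median -0.79). Of all tested genes, 19.6% rose and 19.7% fell in untreated against WT, and 18.8% fell in treated against untreated. No test was made of this split. The 8 genes that passed are shown around the first E-box of their window, with each CACGTG in capitals, since their windows hold the letters that MiT/TFE factors are known to bind.
Ctsa: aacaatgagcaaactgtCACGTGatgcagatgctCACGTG
Ctsd: tccccCACGTGacctgtatccagtcatt
Gla: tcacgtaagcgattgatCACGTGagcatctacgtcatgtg
Lamp1: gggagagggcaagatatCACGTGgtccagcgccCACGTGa
Clcn7: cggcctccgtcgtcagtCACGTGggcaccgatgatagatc
Atp6v0b: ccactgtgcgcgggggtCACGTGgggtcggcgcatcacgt
Atp6v1a: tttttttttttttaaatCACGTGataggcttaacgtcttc
Ctsf: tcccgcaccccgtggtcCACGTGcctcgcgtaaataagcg
On the plus strand of GRCm38.p6 these stretches are Ctsa chr2:164833744-164833783, Lamp1 chr8:13159083-13159122, Clcn7 chr17:25133359-25133398 and Ctsf chr19:4855069-4855108. On the minus strand they are Ctsd chr7:142388050-142388077, Gla chrX:134601210-134601249, Atp6v0b chr4:117887343-117887382 and Atp6v1a chr16:44139368-44139407. Ctsd encodes cathepsin D (log2 fold change 1.02 for untreated Bbs2-/- against WT), Gla alpha-galactosidase A (1.44), Lamp1 a lysosomal membrane glycoprotein (0.37) and Clcn7 a chloride-proton exchanger (0.53). Atp6v0b (0.50) and Atp6v1a (0.78) encode ATPase subunits.

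Macrophage genes moved with the same groups. Of 20, 18 rose in untreated Bbs2-/- libraries against WT (median log2 fold change 2.56), where 19.6% of all tested genes were higher. In treated against untreated libraries 19 fell (median -2.67), where 18.8% of all tested genes were lower. Their summed level was 899.7 to 2273 CPM in treated Bbs2-/-, 7647 to 10730 CPM in untreated Bbs2-/- and 906.1 to 3278 CPM in WT libraries, and none was at 0 throughout. C1qa, a complement gene of macrophages, had a log2 fold change of 2.80 for untreated Bbs2-/- against WT. Mature adipocyte genes went the other way, as 15 of 20 fell in untreated Bbs2-/- against WT libraries, where 19.7% of all tested genes were lower. Adipoq, the adiponectin gene, fell by 2.06 on the log2 scale. What part macrophage or adipocyte content had in the levels of Mitf, Tfeb, Tfec and Tfe3 was not tested.

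The log2 CPM of each MiT/TFE gene was also set against the mean log2 CPM of the 20 macrophage genes within each library. For untreated Bbs2-/- against WT the difference was -0.80 for Mitf, -1.31 for Tfeb and -1.72 for Tfe3, each with no overlap and an exact permutation p of 0.0286, adjusted to 0.0686 over 12 tests. For Tfec it was -0.67, given as a value only. For treated against untreated Bbs2-/- the difference was 1.84 for Tfeb and 2.08 for Tfe3 (exact permutation p = 0.0286, adjusted 0.0686), 0.47 for Mitf (p = 0.171) and 0.58 for Tfec. None passed the correction. The exact permutation p of 0.0286 is the smallest that groups of this size can give. A pass would need many of the 12 tests at that value, so this does not show that the genes changed as the macrophage mean did.

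With the macrophage mean as a covariate beside the group, 55 genes were called for untreated Bbs2-/- against WT and 10 for treated against untreated, and none of the 4 was among them. At an unadjusted p under 0.05, 3 of the 4 were higher for untreated Bbs2-/- against WT. At the same threshold 1 of the 4 was lower for treated against untreated. The log2 fold changes for untreated Bbs2-/- against WT were 0.70 for Mitf, 0.91 for Tfeb and 0.66 for Tfe3 (edgeR adjusted p = 0.409, 0.396 and 0.504), and Tfec turned to -1.49 (0.725). For treated against untreated they were -1.09 for Mitf, -0.46 for Tfeb and -0.40 for Tfe3 (edgeR adjusted p = 0.222, 0.72 and 0.709), and Tfec turned to 1.47 (0.745). Of the 139 genes of the hydrolase, ATPase, membrane, regulator, autophagy and target lists none passed in that edgeR fit. For untreated Bbs2-/- against WT 7 of them were higher and 3 lower at an unadjusted p under 0.05. For treated against untreated Bbs2-/- 2 were higher and 19 lower at that threshold. How many of all tested genes reach it is not given here, so these counts have no background beside them. The mean itself was 7.58 to 8.07 in untreated libraries and at most 6.36 in the others, so the covariate and the group separate the same libraries. The lack of calls in this fit is therefore not read as a lack of change.

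**Figure D5:**
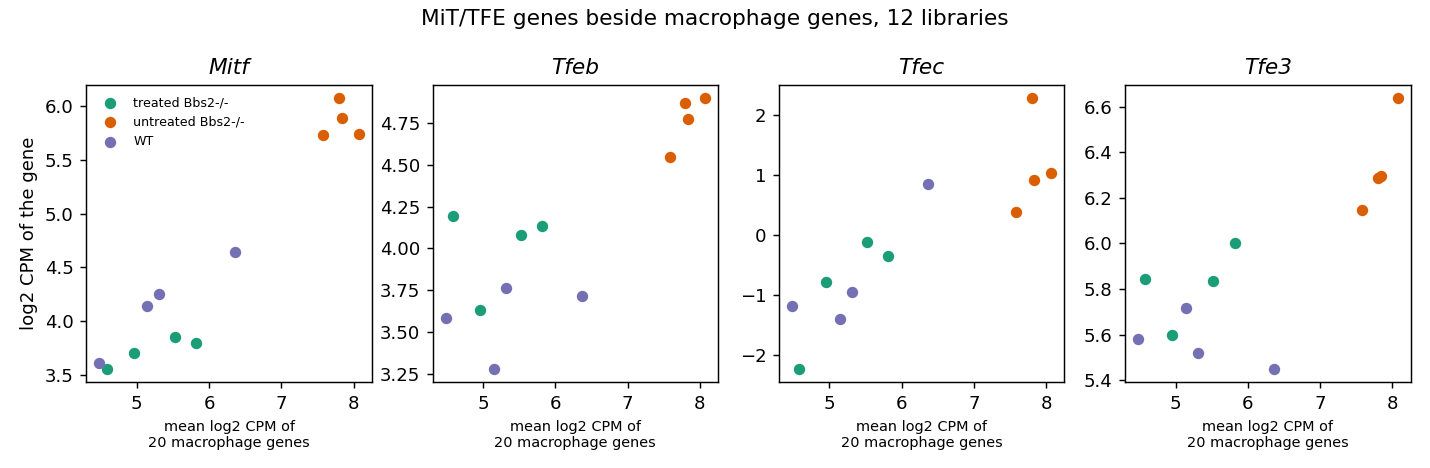
Log2 CPM of each gene (vertical axis) against the mean log2 CPM of 20 macrophage genes (horizontal axis) in the 12 libraries, coloured by group. The untreated Bbs2-/- libraries lie at 7.58 to 8.07 on the horizontal axis, apart from all others, and WT 1 at 6.36 is the highest of the rest.

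Genes of the other cells in which MITF is known were also measured. Of 9 tested mast cell genes 5 rose and 1 fell in untreated Bbs2-/- libraries against WT, beside 19.6% and 19.7% of all tested genes, with a log2 fold change of 3.42 for the protease gene Mcpt4. Without WT 2 and WT 3, 2 of them rose, and without the 4 Foxj1 libraries 8 rose. Over all genes these fits called 3417 and 6161 in either direction. Their summed level was 31.4 to 44.2 CPM in treated Bbs2-/-, 49.2 to 205.0 CPM in untreated Bbs2-/- and 27.0 to 54.8 CPM in WT libraries. Untreated 1, the highest of these, was also the library with the most Mitf and Tfec. Of 9 tested osteoclast genes, several of which macrophages share, 7 rose and 1, Acp5 (-1.13), fell, beside the same shares, while Calcr was at 0 in all libraries. Dcstamp, a cell fusion gene, rose by 2.59 and Nfatc1, a transcription factor gene, by 0.61. Of 12 melanocyte genes 2 were tested, Tyrp1, Oca2 and Mc1r were at 0 throughout, and the summed level was at most 4.72 CPM. Trpm1, a channel gene known as an MITF target in melanocytes, was at 0.109 to 0.159 CPM in treated Bbs2-/-, 0.849 to 1.55 CPM in untreated Bbs2-/- and 0.0663 to 0.871 CPM in WT libraries. It passed the filter on low counts through the untreated group, where it is high, and 1 WT library lay within the untreated range, so no test is given. What part these cells had in the levels of the 4 genes was not tested.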

How the data were processed

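Adipose RNA of 12 samples in 3 groups of 4 was sequenced from TruSeq Stranded mRNA libraries, per the labels' protocols. The authors deposited a table of estimated counts per gene, unscaled, with 92.96 to 94.17% whole values within 1e-06. The authors also deposited log2 FPKM values on a common upper quartile of 3.96. Against the counts these fit log2(FPKM + 1) better than log2 FPKM (residual SD 0.0375 against 0.106), so FPKM was recovered by taking off that offset of 1. Per the submitters' processing notes the genome build is mm10. Which aligner, counter, strand setting and annotation were used is not given in the sources used here. No column of values was left unused.

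Of 53431 identifiers 52207 matched the GENCODE annotation of that build, from which symbols and coordinates come, and 1187 are miRNA identifiers. Rounded counts went into edgeR 4.0.16 under R 4.3.3 (TMM, filterByExpr by group, robust quasi-likelihood test), with all 12 libraries in 1 fit and the group as its only term. P-values were adjusted by Benjamini-Hochberg over the 15968 genes kept, with a threshold of 0.05. The common coefficient of variation was 0.29, and the interval of a fold change covers the spread between libraries. Log2 CPM had a prior count of 2. Differences between genes within a library were compared with two-sided exact permutation tests over 70 splits. RefSeq promoter windows were searched for exact letters. The procedure was tested on simulated data. For treated against WT it recovered 11.9% of 1.5-fold, 40.3% of 2-fold and 71.2% of 4-fold changes, with 6 false calls. For untreated against WT these shares were 16.4%, 53.7% and 81.8%, with 8 false calls. For treated against untreated they were 13.4%, 49.3% and 75.8%, with 5 false calls. A gene that was not called may therefore still have changed.

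The 4 genes, the 14 gene lists (7 of pathways, 7 of cell type markers), the tests and the alternatives were chosen with earlier results of these data known. Named genes are up to 4 per list with the smallest p for untreated Bbs2-/- against WT (up to 8 of the regulators) and the 5 genes most like each MiT/TFE gene. The values of 1 gene that this rule names are not reported here. Fnip1, Fnip2, Smpd1, Ctsf, Abcb9, Atp6v0d2 and the genes with E-boxes were named after their values were seen. Alternatives were DESeq2 1.42.0, its size factors, library size alone, other filters, limma-voom and limma-trend (limma 3.58.1), fits without some libraries, a replicate block and the macrophage level as a covariate. Libraries of 1 group differed by more than sampling noise, with a chi-square per degree of freedom of 17.8 to 84.9.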

Additional observations from a re-analysis of the deposited data

Results flagged for a closer look

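These values stood apart from the other 3 libraries of their group by Dixon's test at its 95% critical value, which chance passes in about 1 in 20 groups, and 54 groups were looked at. Tfec was at 1.69 CPM in WT 1, the highest WT library. The summed level of the MiT/TFE regulators was 5874 CPM in treated 4. Lysosomal membrane protein genes summed to 3024 CPM in untreated 1. Melanocyte genes summed to 3.81 CPM and mast cell genes to 205.0 CPM in the same library, untreated 1. Epididymis genes summed to 1083 CPM in WT 1.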

How the results depend on the processing

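For Mitf, Tfeb and Tfe3 the direction and the call in untreated Bbs2-/- against WT and in treated against untreated Bbs2-/- held under every alternative run except the macrophage covariate. That covariate gave 0.70, 0.91 and 0.66 for Mitf, Tfeb and Tfe3 in untreated against WT, and -1.09, -0.46 and -0.40 in treated against untreated. Tfec turned to -1.49 and 1.47. Genes called were then 55, 10 and, for treated against WT, 78. The cause was not tested. Leaving out 1 library at a time, Mitf stayed at 1.51 to 1.84 and -2.21 to -2.07, Tfeb at 1.10 to 1.29 and -0.85 to -0.65, and Tfe3 at 0.71 to 0.88 and -0.61 to -0.44.

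Tfec is again given as values only. In untreated against WT it was 1.83 with DESeq2, 1.93 with library size alone, 1.93 with limma-voom and 0.74 with log2 FPKM. It was 1.96 with the replicate block and 2.96 without the 4 Foxj1 libraries. With 1 library left out it ranged from 1.26 to 2.81. It was 1.81 with DESeq2 size factors, 1.83 with no filter and 1.80 with a filter of 1 CPM. With only the 2 groups it was 1.79, and without WT 2 and WT 3 it was 1.20. In treated against untreated it ranged from -2.51 to -1.65 with 1 library left out and was -2.36 without the Foxj1 libraries. In treated against WT it ranged from -0.70 to 0.60 with 1 library left out and was 0.60 without the Foxj1 libraries. Few counts limit Tfec.

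Genes called in treated against WT, 41 by the test reported, were 282 with DESeq2, 9 with the replicate block, 2 without the Foxj1 libraries, 2 with only the 2 groups in the fit, 1 without WT 2 and WT 3, and 3 to 49 with 1 library left out. Without WT 2 and WT 3, 3417 were called in untreated against WT. Replicate numbers were not taken as pairs. Of 12 same-numbered pairs 4 correlated above 0.1 (-0.15 to 0.31), and 5 of 12 libraries correlated best with their own number. Between treated and untreated libraries the values were 0.31, 0.12, 0.14 and 0.10, so pairing there is not settled.

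Library size alone moved the median of all genes in untreated against WT to 0.16, with 69.0% of calls higher against 49.9% under TMM, and in treated against untreated 35.5% against 49.6%. The 4 genes kept their signs in both comparisons.

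With the macrophage covariate these genes changed sign in untreated against WT: Akt2 0.01, Dcstamp -0.32, Srebf2 -0.02, Mlxipl 0.34, Map1lc3b 0.13, Stxbp5 -0.23, Gla -0.34, Atp6v1a -0.26, Fnip1 -0.13, Fnip2 -0.51, Trpm1 -1.02, Smpd1 0.26 and Atp6v0d2 -2.10. In treated against untreated these were Ywhab -0.06, Fnip2 0.23, Trpm1 0.81, Smpd1 -0.38 and Atp6v0d2 1.08. None of these passed. Between genes, Mitf minus Tfec turned to 0.12 in treated against untreated with a prior count of 0.5. With log2 FPKM, Mitf minus Tfec turned to 0.68 and Tfeb minus Tfec to 0.26 in untreated against WT, and Tfec minus the macrophage mean to 0.05 in treated against WT.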
